A study of Mus musculus with 8 samples.

Results

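The genes described here encode the enzymes that place and remove methyl and acetyl groups on histones. They were chosen by symbol: lysine methyltransferases and core PRC2 genes, lysine demethylases, lysine acetyltransferases, zinc-dependent histone deacetylases (HDACs) and sirtuins, with at least 10 counts in at least 4 libraries of the exonic count table. The rule found 74 genes of 55471 in that table. All 74 symbols that matched, apart from Uty, which the rule leaves out, passed the count threshold and were also tested. Kdm4d had the fewest reads of them, with 14 to 47 counts per library. Each of the 74 also had a row in a second table, which holds separate exonic and intronic counts of the same libraries.

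Histone tails carry marks that are read by other proteins. Methylation of H3K4 and H3K36 is known from active genes, methylation of H3K9 and H3K27 from silent ones, and acetylation, placed by acetyltransferases and removed by HDACs and sirtuins, loosens chromatin. In neurons several of these enzymes are part of the response to electrical activity. Kdm6b is known as an activity-induced gene, and class IIa HDACs move between nucleus and cytoplasm with calcium signals. Mutations in many of the genes cause disorders of brain development.

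RNA came from forebrain nuclei of male C57BL/6J mice aged 6 to 8 weeks, all of genotype CaMKIIalpha-Cre:SUN1-sfGFP, in which Cre labels the nuclear envelope with a fluorescent protein so that nuclei of Camk2a-expressing cells can be pulled down. Both groups received 1 mg/kg scopolamine methyl nitrate, which blocks muscarinic receptors outside the brain. The 4 Pilo samples then received 340 mg/kg pilocarpine, a muscarinic agonist, 30 min later and had 100 min of seizure, and animals with a Racine score of 3 to 5 were kept. The 4 Mock samples received saline in its place. Drug and seizure cannot be told apart in this design. Whether every sample came from its own mouse is not in the labels. The p-values therefore reflect variation among the samples, part of which may be technical. In bulk RNA, fewer cells of a type and less RNA per cell cannot be told apart either.

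Libraries held 29356788 to 36161448 exonic counts in the exonic table, and 11928054 to 16703475 intronic counts in the second table. In both groups the library numbered 2 in the exonic table had the profile of number 3 in the second table, and the reverse (r from 0.9945 to 0.9975, against -0.5357 to -0.5048 for the same number). Library numbers below are those of the table named. Levels are in CPM, the counts of a gene scaled to its library's total after TMM, a scaling that offsets a few dominant genes. All 8 markers of excitatory neurons were present, with a summed level of 2318 to 2952 CPM in Mock and 2607 to 3161 CPM in Pilo. Of these 4 were higher in Pilo, Slc17a6 the most at a log2 fold change of 0.69, and 1, Emx1, was lower at -0.42. No marker of another cell type was at 0 in all libraries. The 10 markers of inhibitory neurons summed to 138 to 175 CPM in Mock and 173 to 275 CPM in Pilo, and 3 of them were higher in Pilo. The 6 oligodendrocyte markers summed to 311 to 420 CPM in Mock and 396 to 707 CPM in Pilo, and 1 of them, Mbp, was higher. The 4 markers of oligodendrocyte precursors summed to 23.5 to 43.9 CPM in Mock and 27.1 to 63.0 CPM in Pilo, and 1 of them, Olig2, was higher at 0.81. None of the 6 astrocyte, 7 microglial and 6 endothelial and mural markers passed. The part of these cells in the results below was not tested.

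Exonic RNA of histone-modifying enzymes differed between Pilo and Mock in both directions. In Pilo against Mock, 18 of the 74 genes rose, 15 fell and 41 did not pass (quasi-likelihood F-test of edgeR, Benjamini-Hochberg adjusted p under 0.05). Among all 19176 genes tested, 31.8% passed, 15.6% upward and 16.2% downward. The 74 genes had a median exonic level of 87.5 CPM in Mock, against 12.4 CPM for all genes tested. The share that passed among genes of like level was not counted. The median log2 fold change was -0.01 over the 74 genes and 0.005 over all genes tested. At a minimum of 1.5-fold, 5 of the 74 rose and 2 fell, against 5.4% of all genes upward and 7.72% downward (13.1% in all). The groups did not overlap for 18 genes with Pilo above Mock and 14 with Pilo below, against 15.7% and 16.2% of all genes (32% in all). With the library totals as the only scaling, 36.2% of all exonic calls were upward, against 49.1% with TMM scaling, and 16 of the 74 genes rose and 20 fell. Without Mock library 4, and likewise without Pilo library 4, 9 of the 74 fell. The calls counted here come from fits that ignore the replicate numbers. With same-numbered libraries compared as a block, no exonic call was lost, and further genes passed in both directions. Those genes are named below with their blocked values.

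The counts by enzyme class are given as a description, beside the 31.8% of all genes that passed; no test compared the classes. Of 18 demethylase genes, 8 rose and 1 fell (50.0% called), with a median log2 fold change of 0.16. Of 30 methyltransferase genes, counting the PRC2 core, 6 rose and 7 fell (43.3%), with a median of -0.06. Of 8 acetyltransferase genes 2 rose and 0 fell (25.0%, below that share), with a median of 0.18. Of 11 zinc-dependent HDAC genes 2 rose and 2 fell (36.4%, near it), with a median of 0.10. Of 7 sirtuin genes 0 rose and 5 fell (71.4%), with a median of -0.29. With the replicate number as a block, which compares same-numbered libraries, 5 acetyltransferase and 4 HDAC genes rose and 3 demethylase genes fell. The share of all genes called with the block was not counted. Blocked counts here and below therefore have no background beside them and are not read as a trait of these genes.

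**Figure D1:**
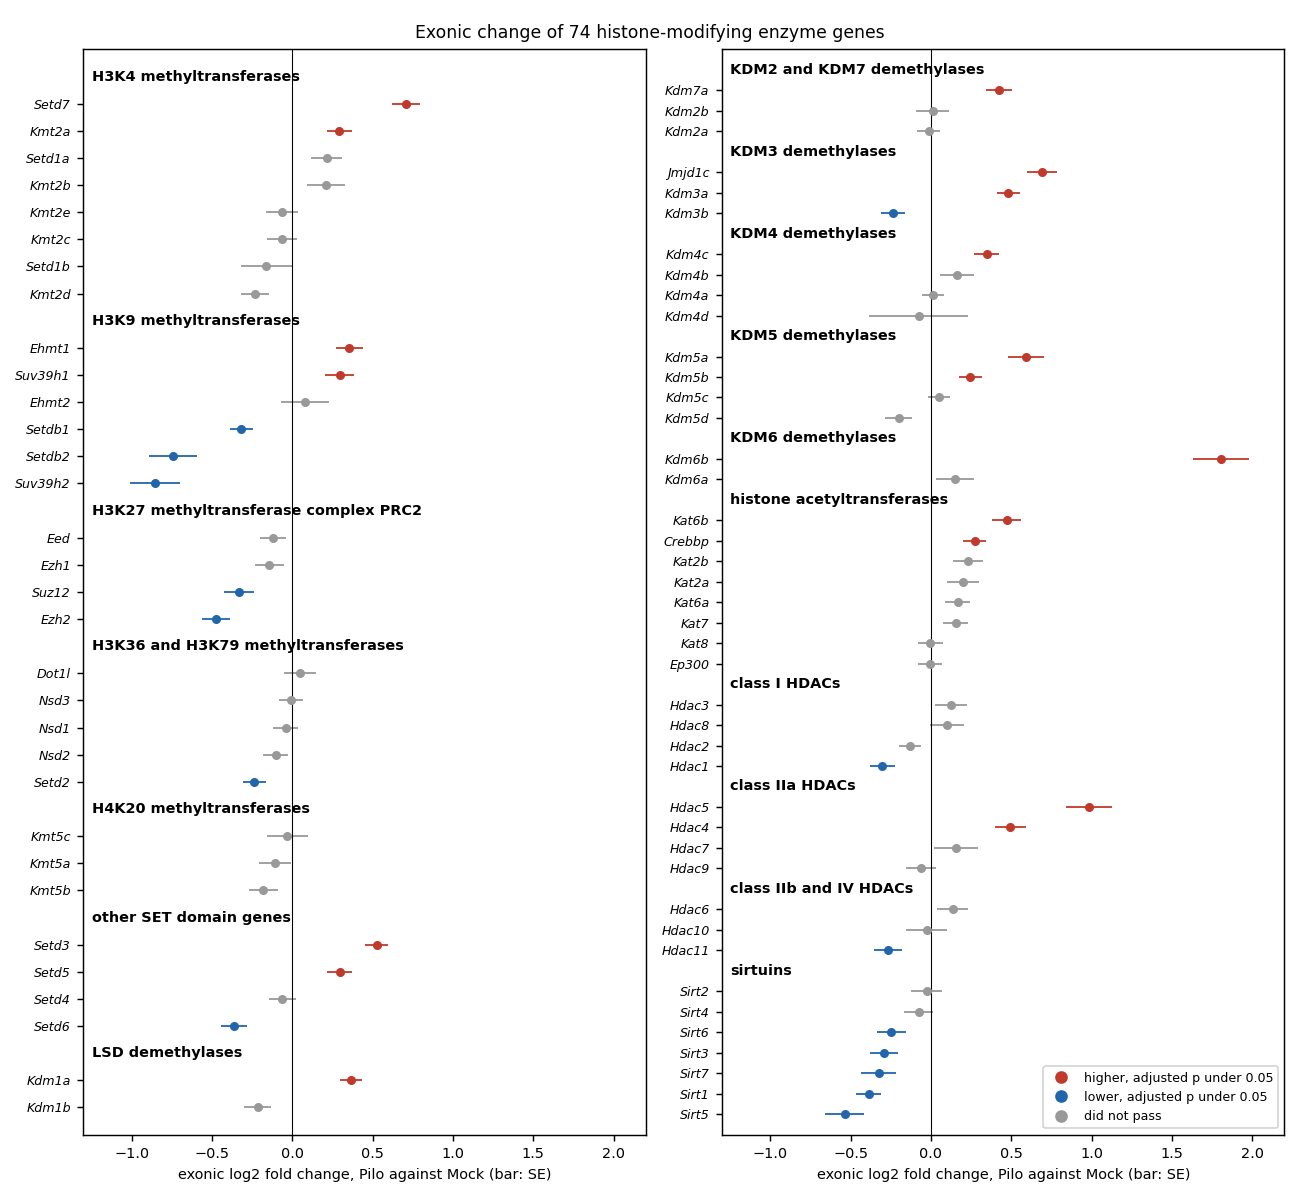
Exonic log2 fold change of Pilo against Mock (x axis; bar, SE) for the 74 genes, grouped by role; red and blue points passed the test upward and downward, and grey points did not pass. Kdm6b at 1.80 lies farthest to the right, Suv39h2 at -0.86 farthest to the left, and no sirtuin gene is red.

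Demethylases gave the largest rise of all 74 genes. Kdm6b (chr11:69398508-69413675, GRCm38) encodes JMJD3, which removes methyl groups from H3K27. Its exonic level was 35.8, 52.4, 47.0 and 49.5 CPM in Mock libraries 1 to 4, and 130.3, 214, 129 and 172 CPM in Pilo libraries 1 to 4. Every Pilo library lay above every Mock library, and Pilo libraries 2 and 4 were the highest. The log2 fold change was 1.80 (SE 0.18, edgeR adjusted p = 4.1e-05). Kdm6a (UTX), the X-linked enzyme of the same family, stood at 82.1, 61.8, 68.2 and 68.1 CPM in Mock and 95.2, 75.5, 64.8 and 75.0 CPM in Pilo. Its groups overlapped, and its log2 fold change of 0.15 (SE 0.12) had an edgeR adjusted p of 0.361.

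The KDM3 enzymes, which act on methylated H3K9, went both ways. Jmjd1c (chr10:67096125-67256326) was at 240.0, 205, 236 and 227 CPM in Mock and 401, 361, 314 and 389.9 CPM in Pilo. The groups were well apart, and the log2 fold change was 0.69 (SE 0.09, edgeR adjusted p = 0.000102). Kdm3a rose by 0.48 (SE 0.07, edgeR adjusted p = 0.000256). Kdm3b fell by 0.24 on the log2 scale (SE 0.07, edgeR adjusted p = 0.0255). The Kdm3b call was lost without Mock library 2, 3 or 4, and without Pilo library 2, 3 or 4, with adjusted p up to 0.0791, and 24.6% of its exonic bases are shared with a gene on the opposite strand.

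The KDM5 enzymes remove methyl groups from H3K4. Kdm5a (chr6:120364124-120444574) stood at 86.1, 69.1, 83.8 and 77.1 CPM in Mock and at 147, 115, 99.0 and 114 CPM in Pilo, without overlap. It rose by 0.59 (SE 0.11, edgeR adjusted p = 0.00157), and Kdm5b rose by 0.25 (SE 0.07, edgeR adjusted p = 0.015), a call lost with library totals as the only scaling. The sex-linked pair did not pass. Kdm5c, on the X chromosome and a gene of intellectual disability, was at 75.6, 71.0, 74.1 and 70.9 CPM in Mock and 77.7, 80.6, 71.6 and 71.9 CPM in Pilo, and the groups overlapped. Its Y-linked partner Kdm5d was at 128, 114, 129 and 106 CPM in Mock and 113, 104, 105 and 93.3 CPM in Pilo. Pilo library 4 was the lowest, and the groups overlapped here too. The log2 fold changes were 0.05 (SE 0.07, edgeR adjusted p = 0.634) and -0.20 (SE 0.09, edgeR adjusted p = 0.0907), and with the replicate block Kdm5d passed at -0.20 (adjusted p = 0.00398). Kdm5d also passed downward at a minimum of 50 counts (edgeR adjusted p = 0.0483) and with library totals only (0.0289).

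Of the remaining demethylases, Kdm1a, Kdm7a and Kdm4c rose by less than 1.5-fold. Kdm1a (LSD1), a flavin-dependent enzyme acting on H3K4, was at 95.8, 99.8, 94.1 and 99.1 CPM in Mock and 118, 133, 126 and 122 CPM in Pilo. Kdm7a, which acts on H3K9 and H3K27, was at 111, 103, 125 and 104 CPM in Mock and 147, 155, 151 and 140.0 CPM in Pilo. Kdm4c, which acts on H3K9 and H3K36, was at 55.0, 52.5, 52.9 and 54.5 CPM in Mock and 74.9, 69.8, 59.5 and 69.3 CPM in Pilo. None of these 3 genes overlapped between groups, and Pilo library 3 was the lowest Pilo library for Kdm4c. Their log2 fold changes were 0.36 (SE 0.07), 0.42 (SE 0.08) and 0.35 (SE 0.08), with edgeR adjusted p from 0.0013 to 0.00408. Kdm1b, Kdm2a, Kdm2b, Kdm4a, Kdm4b and Kdm4d did not pass, between -0.22 for Kdm1b and 0.16 for Kdm4b. With the replicate block Kdm1b passed downward (adjusted p = 0.028) and Kdm4b upward (adjusted p = 0.0305). Kdm1b also passed downward at a minimum of 50 counts (edgeR adjusted p = 0.0354) and with library totals only (0.0198).

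**Figure D2:**
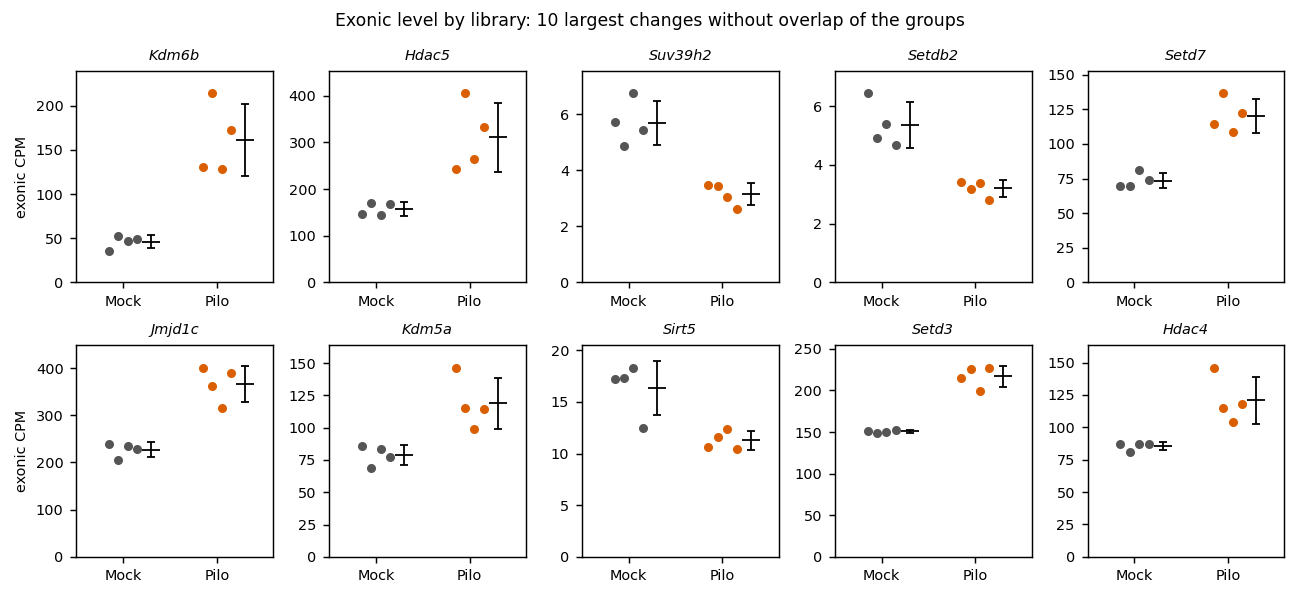
Exonic level in CPM (y axis, from 0) of the 10 genes with the largest change among those past the test whose groups do not overlap; grey points are the 4 Mock and orange points the 4 Pilo libraries, in the order of their numbers, with mean and SD beside them. Kdm6b goes from a mean of 46.2 to 161 CPM, while Suv39h2 and Setdb2 stay below 7 CPM in every library.

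Methyltransferases of H3K4 passed the main test in 2 of 8 cases, upward (25.0%, below the 31.8% of all genes). A fall of Kmt2d passed under other settings. Setd7 (chr3:51515319-51560879), a monomethyltransferase with many non-histone substrates, was at 69.7, 69.5, 81.0 and 73.9 CPM in Mock and 114, 136, 108 and 122 CPM in Pilo. All Pilo libraries lay above all Mock libraries, and the log2 fold change was 0.71 (SE 0.09, edgeR adjusted p = 6.13e-05). Kmt2a (MLL1) rose by 0.29 (SE 0.08, edgeR adjusted p = 0.0124). The other 6 genes, Setd1a, Setd1b, Kmt2b, Kmt2c, Kmt2d and Kmt2e, did not pass, from -0.23 for Kmt2d to 0.21 for Setd1a. With the block Setd1a (adjusted p = 0.00656) and Kmt2b (0.00379) passed upward and Kmt2d (0.00201) downward. Kmt2d also passed downward with DESeq2 (adjusted p = 0.0328) and limma-voom (0.0461). In edgeR it did so at a minimum of 50 counts (adjusted p = 0.0268), with library totals only (0.00993) and without Pilo library 2 (0.0208). Setd1a passed upward without Pilo library 3 (edgeR adjusted p = 0.0334). Another gene model on the same strand overlaps 51.8% of the exonic bases of Setd1a, so its count is uncertain.

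Methyltransferases of H3K9, the mark of heterochromatin, contained the 2 largest falls. Suv39h2 (chr2:3455815-3475031) was at 5.71, 4.87, 6.74 and 5.43 CPM in Mock and 3.46, 3.43, 3.06 and 2.62 CPM in Pilo. Setdb2 (chr14:59402009-59440884) was at 6.44, 4.90, 5.41 and 4.69 CPM in Mock and 3.43, 3.17, 3.38 and 2.82 CPM in Pilo. Both genes were low, and in both every Pilo library lay below every Mock library. The log2 fold changes were -0.86 (SE 0.16, edgeR adjusted p = 0.00104) and -0.74 (SE 0.15, edgeR adjusted p = 0.00217). Setdb1, the partner of Trim28 in silencing retroelements, fell by 0.32 on the log2 scale (SE 0.07, edgeR adjusted p = 0.00451). Ehmt1 (GLP) rose by 0.35 (SE 0.08, edgeR adjusted p = 0.00595), while its binding partner Ehmt2 (G9a) was at 0.08 (SE 0.15) and did not pass. Suv39h1 rose by 0.30 (SE 0.09, edgeR adjusted p = 0.0238), the opposite direction to its paralogue Suv39h2. That call was lost without Mock library 2, 3 or 4, without Pilo library 2, and with library totals only, with adjusted p up to 0.0602 without a library. Opposite-strand genes share 14.6% of the exonic bases of Suv39h1 and 9.98% of those of Suv39h2, and the strand setting of the counting is not given in the sources used here.

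PRC2 places methyl groups on H3K27 through Ezh2 or Ezh1, with Eed and Suz12 as further core subunits. Ezh2 was at 22.4, 21.7, 22.1 and 22.0 CPM in Mock and 14.6, 16.7, 17.2 and 14.7 CPM in Pilo. The Mock libraries lay within 1 CPM of each other and all Pilo libraries lay below them, and the log2 fold change was -0.48 (SE 0.09, edgeR adjusted p = 0.00103). Ezh1, known as the form of non-dividing cells, was at 86.3, 88.3, 82.7 and 86.0 CPM in Mock and 64.8, 88.2, 83.5 and 74.2 CPM in Pilo. Its groups overlapped and it did not pass, at -0.14 (SE 0.09, edgeR adjusted p = 0.254). Suz12 fell by 0.33 on the log2 scale (SE 0.09, edgeR adjusted p = 0.0146) with overlapping groups, since Pilo library 3 at 44.2 CPM exceeded the lowest Mock library at 44.1 CPM. The Suz12 call was lost without Mock library 3 or Pilo library 4, with adjusted p up to 0.0561. Eed was at -0.12 (SE 0.08) and did not pass.

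Among the methyltransferases of H3K36, H3K79 and H4K20, Setd2 was the gene that passed. Setd2 trimethylates H3K36 along transcribed genes, and its level was 121, 115, 128 and 121 CPM in Mock and 106, 94.2, 108 and 103 CPM in Pilo. The groups did not overlap, and the log2 fold change was -0.24 (SE 0.07, edgeR adjusted p = 0.0216). The call was lost without Mock library 1, 3 or 4 and without Pilo library 2 or 4, with adjusted p up to 0.0851. Nsd1, Nsd2, Nsd3 and Dot1l lay between -0.10 and 0.05 and did not pass. Kmt5b, which adds further methyl groups to monomethylated H4K20, was the H4K20 enzyme with the smallest p. It was at 117, 108, 114 and 117 CPM in Mock and 121, 96.4, 92.4 and 93.1 CPM in Pilo, so Pilo library 1 lay above all Mock libraries and the other 3 below them. Its log2 fold change was -0.18 (SE 0.09, edgeR adjusted p = 0.148). It passed downward with the block (adjusted p = 0.0176), with library totals only (edgeR adjusted p = 0.0409) and without Pilo library 1.

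Some SET domain proteins act mainly on other substrates. Setd3 (chr12:108106431-108179314), the actin histidine methyltransferase, was at 152, 149, 149.8 and 153 CPM in Mock and 215, 225, 199 and 228 CPM in Pilo. The Mock libraries were close together and all Pilo libraries were higher, with a log2 fold change of 0.52 (SE 0.07, edgeR adjusted p = 0.00012). Setd5, a gene of intellectual disability, rose by 0.29 (SE 0.08, edgeR adjusted p = 0.0123), and Setd6, which methylates the NF-kappaB subunit RelA, fell by 0.36 on the log2 scale (SE 0.08, edgeR adjusted p = 0.00344). Setd4 was at -0.06 (SE 0.08) and did not pass.

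Acetyltransferase genes passed in 2 of 8 cases, upward (25.0%, below the 31.8% of all genes). Kat6b, the catalytic subunit of a MYST family complex, was at 160.0, 149, 151 and 153 CPM in Mock and 234, 229.7, 177 and 209 CPM in Pilo. The groups did not overlap, Pilo library 3 was the lowest of its group, and the log2 fold change was 0.47 (SE 0.09, edgeR adjusted p = 0.00145). Crebbp (CBP), a coactivator of CREB, was at 173, 179, 178 and 182 CPM in Mock and 204, 236, 215 and 206 CPM in Pilo. It rose by 0.27 (SE 0.07, edgeR adjusted p = 0.0112) without overlap. Its paralogue Ep300 (p300) was at 126, 113, 129 and 121 CPM in Mock and 119, 117, 133 and 118 CPM in Pilo, with overlapping groups. The log2 fold change of Ep300 was -0.01 (SE 0.07, edgeR adjusted p = 0.956). The difference between the paralogues was not tested. Kat2a, Kat2b, Kat6a and Kat7 lay between 0.15 and 0.23 and Kat8 at 0.00, and none passed. With the block Kat2a (adjusted p = 0.00788), Kat2b (0.0305) and Kat6a (0.0133) also passed upward. Kat2b passed upward with DESeq2 as well (adjusted p = 0.048). In edgeR Kat6a did so without Mock library 3 (adjusted p = 0.0379) and Kat7 without Pilo library 3 (0.0425).

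Class IIa HDACs, which bind MEF2 factors and shuttle with calcium signalling, held the largest rise after Kdm6b. Hdac5 (chr11:102194432-102230166) was at 147, 171, 143 and 168 CPM in Mock and 242, 405, 264 and 334 CPM in Pilo. All Pilo libraries lay above all Mock libraries, and they spread widely, with 2 and 4 highest as for Kdm6b. The log2 fold change was 0.98 (SE 0.14, edgeR adjusted p = 0.000346). Hdac4 (chr1:91928779-92195699) was at 87.1, 81.0, 87.4 and 87.2 CPM in Mock and 146, 115, 104 and 118 CPM in Pilo, again without overlap. Hdac4 rose by 0.49 (SE 0.10, edgeR adjusted p = 0.00157), and a gene on the opposite strand shares 22.4% of its exonic bases. Hdac7 at 0.16 (SE 0.14) and Hdac9 at -0.06 (SE 0.09) did not pass, and Hdac7 passed upward with the block (adjusted p = 0.0249).

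The class I enzymes, catalytic subunits of the large corepressor complexes, and the remaining zinc-dependent HDACs moved less. Hdac1 was at 49.2, 57.5, 52.3 and 50.1 CPM in Mock and 39.0, 44.4, 45.6 and 40.5 CPM in Pilo, without overlap. Hdac1 fell by 0.30 on the log2 scale (SE 0.08, edgeR adjusted p = 0.0114). Its close paralogue Hdac2 was at -0.13 (SE 0.07, edgeR adjusted p = 0.18) and passed downward with library totals only (edgeR adjusted p = 0.0499). Hdac3 and Hdac8 were at 0.12 and 0.10 and did not pass. Hdac11, the class IV enzyme, was at 157, 186, 156 and 161 CPM in Mock and 125, 146, 150.2 and 127 CPM in Pilo. The groups were apart, Mock library 2 was the highest, and the log2 fold change was -0.27 (SE 0.09, edgeR adjusted p = 0.0332). The Hdac11 call was lost without Mock library 1, 2 or 4 and without Pilo library 1 or 4, with adjusted p up to 0.111, and 17.9% of its exonic bases are shared with opposite-strand genes. Hdac6 and Hdac10 did not pass, and Hdac6 passed upward at 0.14 with the block (adjusted p = 0.0451).

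Sirtuins are NAD-dependent deacylases of the nucleus, cytoplasm and mitochondria, and none of the 7 rose. Sirt5 (chr13:43365496-43395203), a mitochondrial desuccinylase, was at 17.2, 17.4, 18.3 and 12.5 CPM in Mock and 10.6, 11.7, 12.4 and 10.4 CPM in Pilo. Mock library 4 lay far below the other 3 and just above the highest Pilo library, and the log2 fold change was -0.54 (SE 0.12, edgeR adjusted p = 0.0048). Sirt1, the nuclear enzyme nearest to yeast Sir2, was at 43.4, 40.6, 39.5 and 40.3 CPM in Mock and 34.5, 31.2, 29.1 and 30.3 CPM in Pilo. It fell by 0.39 on the log2 scale (SE 0.08, edgeR adjusted p = 0.00198) without overlap. Mitochondrial Sirt3 was at -0.29, nuclear Sirt6 at -0.25 and nucleolar Sirt7 at -0.32, with edgeR adjusted p of 0.0223, 0.0496 and 0.0369, and the groups of Sirt6 and Sirt7 overlapped. Sirt2 and Sirt4, at -0.03 and -0.08, did not pass.

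The sirtuin count rested on several libraries. It went from 5 to 2 without Mock library 2 or without Mock library 4, and to 3 without Mock library 1 or without Pilo library 1, 3 or 4. The call of Sirt3 was lost without Mock library 2, 3 or 4 or Pilo library 4 (adjusted p up to 0.069), and that of Sirt7 without Mock library 1, 2 or 4 or Pilo library 1 or 3 (up to 0.115). Sirt6 was lost without Mock library 1, 2 or 4 or Pilo library 1, 3 or 4 (up to 0.147), and also with DESeq2's size factors, DESeq2 and limma-voom. Sirt1 and Sirt5 passed without any of the 8 libraries in turn. Opposite-strand genes share 12.7% of the exonic bases of Sirt3.

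**Figure D3:**
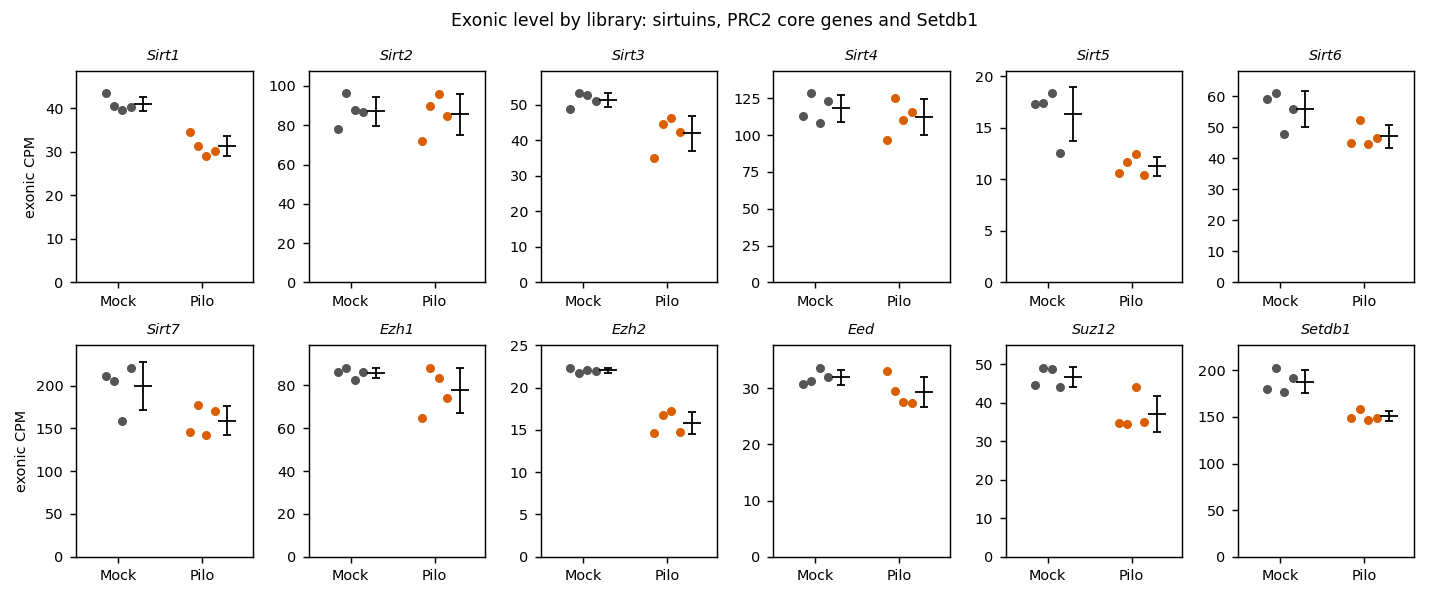
Exonic level in CPM (y axis, from 0) of the 7 sirtuin genes, the 4 PRC2 core genes and Setdb1; grey points are the 4 Mock and orange points the 4 Pilo libraries, in the order of their numbers, with mean and SD beside them. Sirt1, Ezh2 and Setdb1 separate fully, with Ezh2 going from a mean of 22.0 to 15.8 CPM, while Sirt2, Sirt4, Ezh1 and Eed overlap.

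The promoters were searched for the sites of 2 factor families known from activity-dependent transcription. CREB binds the cAMP response element (CRE), here TGACGTCA, or its core TGACG, counted where it is not part of a full CRE. AP-1 factors bind TGANTCA. Both strands of RefSeq windows on GRCm38.p6 were searched, from 250 bases before to 50 after each gene start, and 59 of the 74 genes matched 81 windows. Kdm6b had no window. A full CRE was found in 1.23% of the windows of these genes and in 1.79% of all 32851 windows. The core was found in 25.9% and 19.5%, and AP-1 in 9.88% and 7.81%. By exonic result, 6 of 16 genes that rose, 4 of 13 that fell and 9 of 30 that did not pass had the core. AP-1 was found for 1, 0 and 6 of them. These are counts of genes, where a match in any window of a gene counts, so they are not comparable with the shares of windows. The share over all genes was not counted. A match is a description of letters and not a bound site. Sites with the motif in capitals and 10 bases on each side are shown for some genes called in either direction, as the same core occurs in both. Among these genes, Kdm3a (0.48), Sirt1 (-0.39) and Suz12 (-0.33) changed by less than 1.5-fold in exons. The right flank of the Hdac5 site holds a second core, left in lower case. Both Hdac5 cores lie in an exon, just after the RefSeq start.
Hdac5, which rose (chr11:102230151-102230175, minus strand): tcgggtcacgTGACGagagtgacgt
Jmjd1c, which rose (chr10:67185661-67185685, plus strand): tcagcacctgTGACGggggattagt
Kdm3a, which rose, AP-1 (chr6:71609129-71609155, minus strand): accataaaggTGACTCAgtccagcctg
Suv39h2, which fell, the full CRE (chr2:3475054-3475081, minus strand): cggtctccgcTGACGTCAgaacgcctcg
Sirt1, which fell (chr10:63339060-63339084, minus strand): gcgggtcacgTGACGgggtttaaat
Suz12, which fell (chr11:79992976-79993000, plus strand): tccgcgtgacTGACGggggactctg
Hdac4 had 2 cores in the 250 bases before its RefSeq start (chr1:92180342-92180591, minus strand), shown in capitals: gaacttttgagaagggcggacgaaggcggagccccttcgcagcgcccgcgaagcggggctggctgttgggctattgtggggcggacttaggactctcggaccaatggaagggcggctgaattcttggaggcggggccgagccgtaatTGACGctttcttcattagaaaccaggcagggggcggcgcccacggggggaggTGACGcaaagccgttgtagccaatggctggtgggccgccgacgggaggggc

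Intronic reads are commonly taken as a sign of RNA that is not yet spliced. These libraries were poly(A)-selected, and the source of their intronic reads was not tested. Of 72 genes with intronic reads to test, 17 rose and 12 fell, against 19.6% upward and 21.9% downward, or 41.4%, of 13318 genes tested in introns. At 40.3%, the share of these genes that passed was near that background. Suv39h1 and Hdac6 are listed at 0 intronic counts in all libraries and were not tested. With the replicate block the number that fell was 24, without a blocked share of all genes to set beside it, and with library totals as the only scaling it was 22. That scaling moved the median of all genes to -0.11 in introns and gave 34.1% of all intronic calls upward, against 47.3% with TMM scaling. Without Pilo library 4 of the second table, 7 genes fell. The calls added by the block in introns were the rises of Dot1l (adjusted p = 0.00065), Kdm3a (0.00278), Hdac4 (0.0105), Hdac10 (0.0166) and Kdm4b (0.0273). The falls it added were those of Kdm5d (-0.32, adjusted p = 0.000212), Crebbp, Ep300 (-0.28, 0.00298), Hdac1 (-0.26, 0.00429), Nsd1 (0.0135), Ezh2 (-0.29, 0.015), Sirt2 (0.0216), Eed (0.025), Kdm1b (0.0292), Hdac2 (0.0293), Kdm4d (0.0299) and Setd4 (0.0462). In the sum of exons and introns, 19 genes rose and 13 fell, against 19.1% and 18.2% of 14816 genes (37.2% in all). With the block these numbers were 29 and 26, and Kmt2b (adjusted p = 0.000236), Hdac3 (0.000716), Hdac6 (0.00309), Kat2a (0.00645), Kdm5c (0.0175), Kat6a (0.0272), Hdac9 (0.0312), Kdm4b (0.0315), Kat2b (0.0328) and Dot1l (0.0397) were the added rises. The added falls were those of Kdm5d (0.000421), Sirt7 (0.00208), Kmt5b (0.00837), Kdm4d (0.00993), Sirt6 (0.0116), Eed (0.0131), Kmt5a (0.0171), Kdm3b (0.0232), Kmt2d (0.0235), Setd4 (0.0266), Hdac8 (0.0282), Hdac2 (0.0297) and Sirt2 (0.0386). With library totals only, 25 fell in that sum and 35.2% of all its calls were upward, against 51.2%.

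With TMM scaling, all libraries and no block, no gene was called in opposite directions in the 2 regions. Crebbp, which rose in exons, passed downward in introns with the block (-0.28, adjusted p = 0.00282), with library totals only (-0.39, adjusted p = 0.024) and without Mock library 3 of the second table (-0.39, adjusted p = 0.0156). Of genes that rose in exons, 11 also rose in introns, 6 did not pass there and 1 was not tested. Of genes that fell in exons, 9 also fell in introns and 6 did not pass there. In introns only, 6 genes rose and 3 fell. Of all 29 intronic calls, 20 held when each library was left out in turn. The calls lost without at least 1 library were those of Hdac9, Kdm1a, Kdm5a, Kmt2c, Kmt5a, Kmt5b, Setd1b, Setd2 and Sirt3. Kdm6b was at 1.92 (SE 0.19) in introns, Jmjd1c at 0.86 (SE 0.09), Hdac5 at 0.74 (SE 0.13), Setd3 at 0.64 (SE 0.09) and Setd7 at 0.55 (SE 0.13), all past the intronic test. Setdb2 was at -0.95 (SE 0.20), Suv39h2 at -0.81 (SE 0.18), Sirt5 at -0.61 (SE 0.16) and Sirt1 at -0.49 (SE 0.13), past it as well.

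Whether the exonic change of a gene differed from its intronic change was tested as an interaction in the second table. The exonic change was the higher for 4 genes and the lower for 13 of 72, against 13.5% and 12.8% of 13047 genes (26.2% in all). By role, the exonic change was the lower for 4 of 8 H3K4 methyltransferase genes and the higher for 2 of 8 acetyltransferase genes. With the block the exonic change was the higher for 17 genes, among them 5 acetyltransferase genes, and the lower for 16. The share of all genes past the blocked interaction test was not counted. The genes added as higher were Kat6a (0.36, adjusted p = 0.00105), Ep300 (0.24, 0.00213), Kdm7a (0.34, 0.00225), Hdac11 (0.20, 0.00373), Kmt5a (0.00732), Kdm3a (0.00876), Hdac4 (0.0122), Kdm5a (0.0178), Setd1b (0.0275), Kmt5b (0.0287), Kat2a (0.0289), Hdac7 (0.0426) and Sirt2 (0.0488). Those added as lower were Kmt2a (-0.22, 0.00548), Setd3 (0.0383) and Sirt6 (0.0419). The number with the higher exonic change was 10 without Mock library 3 and 2 without Pilo library 3.

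**Figure D4:**
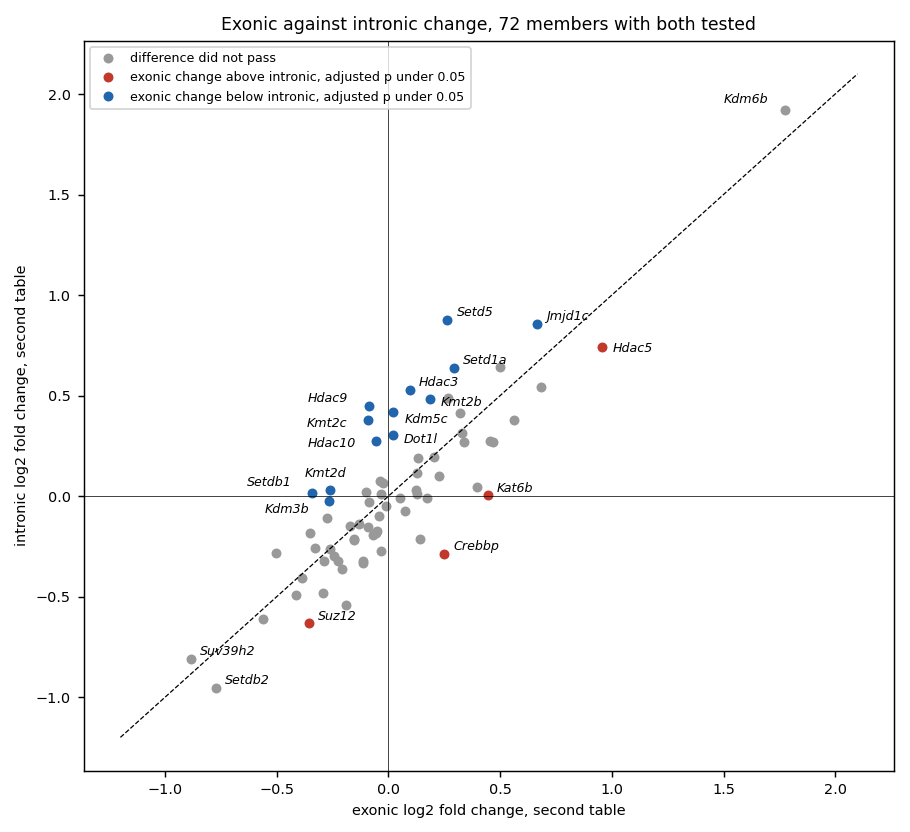
Exonic (x axis) and intronic (y axis) log2 fold change of Pilo against Mock for the 72 genes tested in both regions of the second table, with the line of equal change; red points had a higher and blue points a lower exonic than intronic change past the interaction test. The largest gap is that of Setd5, at 0.26 in exons and 0.88 in introns, while Kdm6b lies close to the line.

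Setd5 had the largest gap with the exonic change below the intronic one. Its introns were at 228, 217, 179 and 194 CPM in Mock and 394, 372, 357 and 383 CPM in Pilo, far apart. Its exons in the same table were at 371, 337, 336 and 342 CPM in Mock and 431, 371, 429 and 434 CPM in Pilo. The exonic groups just overlapped, since Mock library 1 and Pilo library 2 were level, and the difference between the changes was -0.62 (SE 0.08, edgeR adjusted p = 0.000134).

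Hdac3, the catalytic subunit of the NCoR complex, was at 124, 105, 123 and 125 CPM in introns of Mock and 172, 146, 193 and 177 CPM in those of Pilo. Its exons were at 274, 211, 264 and 275 CPM in Mock and 278, 236, 297 and 282 CPM in Pilo. Library 2 was the lowest of each group in both regions, and only the introns separated the groups. The difference was -0.42 (SE 0.06, edgeR adjusted p = 0.000267).

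Kmt2c (MLL3), which monomethylates H3K4 at enhancers, was at 131, 131, 101 and 133 CPM in introns of Mock and 168, 141, 151 and 186 CPM in those of Pilo. Its exons were at 242, 255, 207 and 243 CPM in Mock and 253, 198, 212 and 226 CPM in Pilo and overlapped. The intronic log2 fold change was 0.38 (SE 0.12), and the difference -0.47 (SE 0.07, edgeR adjusted p = 0.000517). The intronic call of Kmt2c was lost without Mock library 3 or Pilo library 4 (adjusted p up to 0.0649) and with library totals only. Kdm5c introns were at 58.0, 62.5, 57.8 and 61.8 CPM in Mock and 72.1, 79.3, 85.9 and 84.0 CPM in Pilo, also without overlap. Its exonic groups overlapped, and the difference was -0.39 (SE 0.08, edgeR adjusted p = 0.00333). Kmt2b, also an H3K4 methyltransferase, showed -0.30 (SE 0.06, edgeR adjusted p = 0.00199), with Pilo introns above all Mock introns.

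Setdb1 showed the gap on the side of a fall. Its exons were at 195, 192, 219 and 209 CPM in Mock and 159.6, 157, 168 and 158 CPM in Pilo, without overlap. Its introns were at 142, 136, 158 and 161 CPM in Mock and 155, 151, 147 and 149.8 CPM in Pilo. The intronic groups overlapped, at a log2 fold change of 0.01 (SE 0.09), and the difference was -0.36 (SE 0.06, edgeR adjusted p = 0.00106).

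The gap ran the other way in both acetyltransferase genes that rose in exons. Kat6b introns were at 145, 131, 125 and 155 CPM in Mock and 146, 130.2, 136 and 146 CPM in Pilo, while its exons in this table were at 174 CPM or below in Mock and at 189 CPM or above in Pilo. The difference was 0.43 (SE 0.08, edgeR adjusted p = 0.002). Crebbp introns were at 118, 131, 95 and 146 CPM in Mock and 94.6, 113, 88.9 and 105 CPM in Pilo. They overlapped at a log2 fold change of -0.29 (SE 0.13, edgeR adjusted p = 0.0804), without the block. The difference for Crebbp was 0.53 (SE 0.13, edgeR adjusted p = 0.0103). For Ep300 it was 0.24 (edgeR adjusted p = 0.055 without the block).

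Hdac5 and Suz12 were the remaining genes with the higher exonic change, by 0.22 (SE 0.07, edgeR adjusted p = 0.0315) and 0.28 (SE 0.08, edgeR adjusted p = 0.025). Suz12 introns were at 55.0, 69.5, 59.5 and 59.4 CPM in Mock and 35.4, 50.4, 32.4 and 38.9 CPM in Pilo, so its intronic fall of 0.63 on the log2 scale (SE 0.14) was larger than the exonic one. The Hdac5 difference was lost without Mock library 1 or 2 or any Pilo library (adjusted p up to 0.091), and the Suz12 difference without Mock library 2 or 4 or Pilo library 1 or 3 (up to 0.0819). The other 7 genes with the lower exonic change were Setd1a, Kmt2d, Dot1l, Hdac9, Hdac10, Kdm3b and Jmjd1c, from -0.55 for Hdac9 to -0.19 for Jmjd1c. Of these, Jmjd1c was lost without Mock library 1, 2 or 4 or Pilo library 2, 3 or 4 and with no filter, and Kmt2d without Mock library 2 or 3 or Pilo library 3 or 4.

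**Figure D5:**
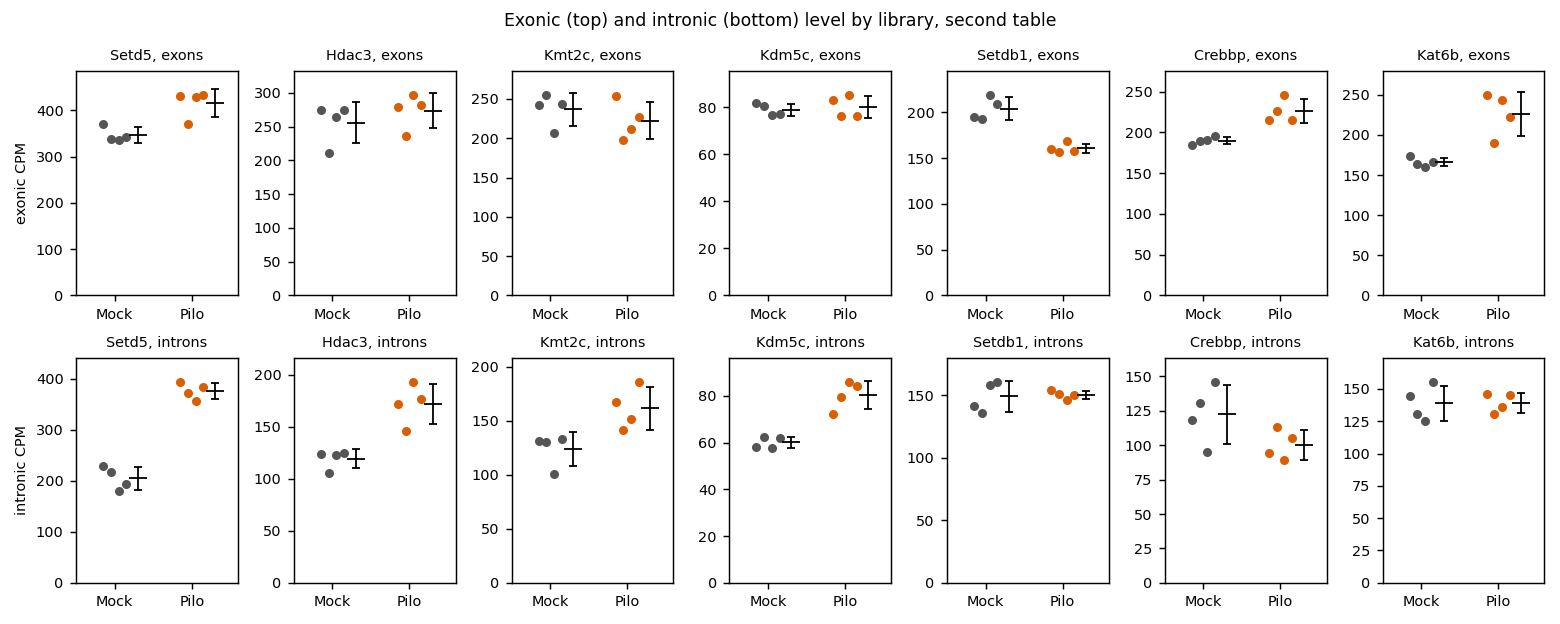
Exonic (top) and intronic (bottom) level in CPM (y axes, from 0) of 7 genes of the second table; grey points are the 4 Mock and orange points the 4 Pilo libraries, in the order of that table's numbers, with mean and SD beside them. In Setd5, Hdac3, Kmt2c and Kdm5c the introns separate the groups fully and the exons overlap, whereas in Crebbp and Kat6b the exons separate them and the introns overlap.

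Per kilobase of exon, these genes were above the typical gene. The median level in Mock was 11.3 CPM per kb for the 74 genes and 3.76 CPM per kb for all genes tested in exons. Hdac3 (58.2 ± 6.92, SD, n = 4), Ehmt2 (54.2 ± 9.51), Dot1l (50.2 ± 5.42) and Sirt4 (49.2 ± 3.85 CPM per kb) stood highest and lay within each other's spread. Kdm4d (0.312 ± 0.0349 CPM per kb) stood lowest, below Suv39h2 (1.29 ± 0.178) and Setdb2 (1.32 ± 0.192), whose levels did not differ beyond their spread. The 2 largest falls were thus in genes of very low level. The genes are also long, with a median span of 42.4 kb against 18.1 kb for all genes tested. The span was 75.6 kb for those that rose in exons and 29.7 kb for those that fell.

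Genes that work with these enzymes were taken from lists of complexes and of related enzymes outside the symbol rule. Of 117 tested, 28 rose and 23 fell in exons, 43.6% in all, against the 31.8% of all genes given above. The lists were chosen with earlier results of these data known, so no excess over all genes is read from these shares. Genes of like level were not set beside them, and the share called is given for each list. Of 23 HDAC corepressor genes 6 rose and 3 fell (39.1% called). Sap30, a subunit of the SIN3 complex, had a mean level of 3.15 ± 0.513 CPM in Mock and 12.6 ± 2.89 CPM in Pilo (SD over 4 libraries). Its log2 fold change of 2.0 (SE 0.18) was the largest of any gene in these lists. Rbbp7, a histone chaperone of several complexes, rose by 0.43 (SE 0.07). Of 11 partners of the H3K4 methyltransferases 1 rose and 5 fell (54.5%). Ash2l, a core subunit of all these complexes, fell by 0.57 on the log2 scale (SE 0.07), and Psip1, which tethers MLL1 to chromatin, fell by 0.43 (SE 0.08).

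Of 14 further Polycomb genes 3 rose and 1 fell (28.6%, below the share of all genes). Jarid2, which recruits PRC2, stood at 71.6 ± 1.99 CPM in Mock and 119 ± 9.88 CPM in Pilo and rose by 0.73 (SE 0.08), and Pcgf6, a PRC1 subunit, fell by 0.45 on the log2 scale (SE 0.08). Of 36 acetyltransferase partners 12 rose and 7 fell (52.8%), with Jade2 at 0.51 (SE 0.08) and Msl2 at 0.45 (SE 0.07) as those of smallest p. Of 8 genes listed as demethylases and related enzymes outside the rule 3 rose and 3 fell (75.0%), which is not a share of demethylases alone. Jmjd6, a lysyl hydroxylase, fell by 0.81 on the log2 scale (SE 0.08), and the X-linked H3K9 demethylase Phf8 rose by 0.52 (SE 0.09). Of 18 methyltransferases outside the rule 1 rose and 4 fell (27.8%, below the share of all genes), with the arginine methyltransferases Prmt9 at -0.49 (SE 0.09) and Prmt3 at -0.34 (SE 0.08). Of 7 heterochromatin readers 2 rose and 0 fell (28.6%, also below it), Morc2a at 0.33 (SE 0.09) and Trim28 at 0.40 (SE 0.12). The edgeR adjusted p of the 14 partner genes named here ran from 7.13e-06 for Sap30 to 0.0187 for Trim28, and the Trim28 call was lost without Pilo library 4 (adjusted p = 0.0555).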

How the data were processed

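The authors deposited whole-number counts of reads per gene, exonic counts in an exonic table of Ensembl genes and separate exonic and intronic counts in a second table of Entrez genes. Libraries were directional and poly(A)-selected, per the labels' protocols. Tools in the submitters' processing notes, without stated roles, are HTSeq 0.11.2, STAR 2.7.1a, edgeR, Trimmomatic 0.39 and R 4.1.1, and the build is mm10. The annotation release, the strand setting and the way intronic reads were separated: not given in the sources used here. For this reason counts of overlapping genes are uncertain. IDs without a symbol (327) held 0.165% of exonic counts.

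The test was the quasi-likelihood F-test of edgeR 4.0.16, run in R 4.3.3, on these counts (robust, TMM, filterByExpr at 10 counts, treatment as the only term), fitted on all genes with Benjamini-Hochberg adjustment at 0.05. SE is the unshrunk coefficient over the square root of F. The interaction fit had sample, region and region by treatment as terms. The scripts were tested on simulated data. CPM are counts scaled by the library total and TMM factor. Coordinates are those of GENCODE vM21, on GRCm38. Same-numbered Mock and Pilo libraries deviated together in every pair (r from 0.3717 to 0.4006 in exons and from 0.3182 to 0.4696 in introns), so the numbers of the titles pair the samples, and blocked values are given where they change a call. The main counts and calls are those of the fit without the block, which leaves this pairing out. Alternatives were size factors of DESeq2 1.42.0, library totals only, DESeq2, limma-voom (limma 3.58.1), no filter, a minimum of 50 counts, the replicate block and each library left out.

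The members and lists were chosen with earlier results of these data known. All 8 values are given for the 10 largest changes past the exonic test without overlap, the gene of smallest p in each role, and 4 pairs of related enzymes; up to 6 interaction genes per direction and the 2 partners of smallest p per list are named. Other members are given by value or count.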

Additional observations from a re-analysis of the deposited data

Results flagged for a closer look

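In 92 groups of 4 libraries of the genes given with all values, 10 had a library set apart from the other 3 by the gap test of Dixon, which chance gives in about 1 in 20 groups. In the exonic table these were Ep300 in Pilo, with a highest library at 133 CPM, Hdac11 in Mock, with a highest library at 186 CPM, Hdac4 in Mock, with a lowest library at 81.0 CPM, and Kmt5b in Pilo, with a highest library at 121 CPM. In introns they were Hdac3 in Mock, with a lowest library at 105 CPM, and Kmt2c in Mock, with a lowest library at 101 CPM, libraries 2 and 3 of the second table. In exons of the second table they were Hdac3 in Mock, lowest at 211 CPM, Setd5 in Mock, highest at 371 CPM, Setd5 in Pilo, lowest at 371 CPM, and Suz12 in Pilo, highest at 47.2 CPM. Number 2 of the second table, in Mock or Pilo, gave 4 of these 6 values, and it holds the profile of number 3 in the exonic table.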

How the results depend on the processing

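Of the 33 exonic calls, 24 stayed past the threshold in the same direction in every alternative, 25 when each library was left out in turn and 30 under the other settings. Of the 41 genes without an exonic call, 27 stayed without one in every alternative. In introns 19 of 29 calls stayed in every alternative, in gene bodies 27 of 32, and for exons against introns 13 of 17. Requiring 1.5-fold left 5 genes that rose and 2 that fell. Leaving out a library gave 17 to 20 genes that rose and 9 to 14 that fell in exons, 7 to 14 that fell in introns, and 2 to 10 with the higher exonic change. Library totals as the only scaling gave 22 falls in introns and 25 in gene bodies. The replicate block gave 24 falls in introns, 29 rises and 26 falls in gene bodies and 17 genes with the higher exonic change, and otherwise no count over all 74 genes moved by over 1.5 times and no call was lost in any region. Shares of all genes called with the block were not counted. Intronic values had the other sign than exonic ones for 14 of 72 genes. Crebbp (-0.29 in introns), Hdac9 (0.45), Kmt2c (0.38) and Setdb1 (0.014) passed in 1 of the regions, the other 10, among them Hdac10, Kat6a and Hdac8, in neither, and the cause was not tested. Counts of low genes such as Kdm4d limit what could be detected.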
